A study of Drosophila melanogaster with 3 samples.

Results

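Of the 13829 protein-coding genes in the deposited table, 27 stood at 20 FPKM or more in replicate 2 and at least 4 times above both other libraries. FPKM, fragments scaled to exon length and to a denominator for each library, is the unit the authors deposited. The comparison with the other libraries was made after adding 1 to each value. Genes whose symbols start with Eig71E or PGRP were left out by the same rule. The material was salivary glands of third-instar (L3) Drosophila melanogaster larvae, 50 glands per sample, from flies kept at 25°C, with poly(A) RNA in 3 libraries of 1 control group named replicates 1, 2 and 3. All 3 samples carry the same genotype field, yw, while their titles name an Oregon stock. No treatment, sex or hour within L3 is given, and nothing says that the 3 samples came from separate cultures, so their spread may be technical only. The series title concerns the histone methyltransferases SetDB1 and Su(var)3-9, and no mutant sample was analysed here.

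The 27 genes were chosen by their FPKM in all 3 libraries, so no library was left for a test of them, and everything on their levels is a description. The 27 genes were 1.42% of the 1901 protein-coding genes with 20 FPKM or more in replicate 2. With replicate 1 in the place of replicate 2, the same rule gave 1 of 1856 genes (0.0539%), and with replicate 3 it gave 19 of 1817 (1.05%). Without replicate 1, so against replicate 3 alone, 164 genes met the limits, and without replicate 3 they were 32. The number was 54 after rescaling to equal sums per library (TPM). The median difference between replicate 2 and the higher other library was 3.04 on the log2(FPKM + 1) scale over the 27 genes, from 2.05 to 10.12, beside -0.15 over all 1901. Of the 1901, 119 genes, the 27 included, stood at least 2 times above both others. Just inside the limit were Traf4, CG5805 and CG17754, with ratios of 4.16, 4.20 and 4.31. Just outside were Snp, CG33099 and CG6966, with ratios of 3.83, 3.78 and 3.71.

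The larval salivary gland is a secretory tissue. Through L3 it makes glue proteins, which are processed in the endoplasmic reticulum (ER) and Golgi, modified with O-linked sugars and released to fix the pupa to a surface. The steroid hormone ecdysone then ends glue synthesis, switches on early genes and later a set of late genes, and finally triggers breakdown of the gland by autophagy and cell death. Of 13 gland identity genes, 8 had 20 FPKM or more in replicate 2, while Scr, hkb, rib, hth and Pgant4 had 3.15 FPKM or less in each library. The transcription factor gene sage had 773, 726 and 670 FPKM in replicates 1, 2 and 3, and the glycosyltransferase gene Pgant9 had 257, 227 and 245.

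**Figure D1:**
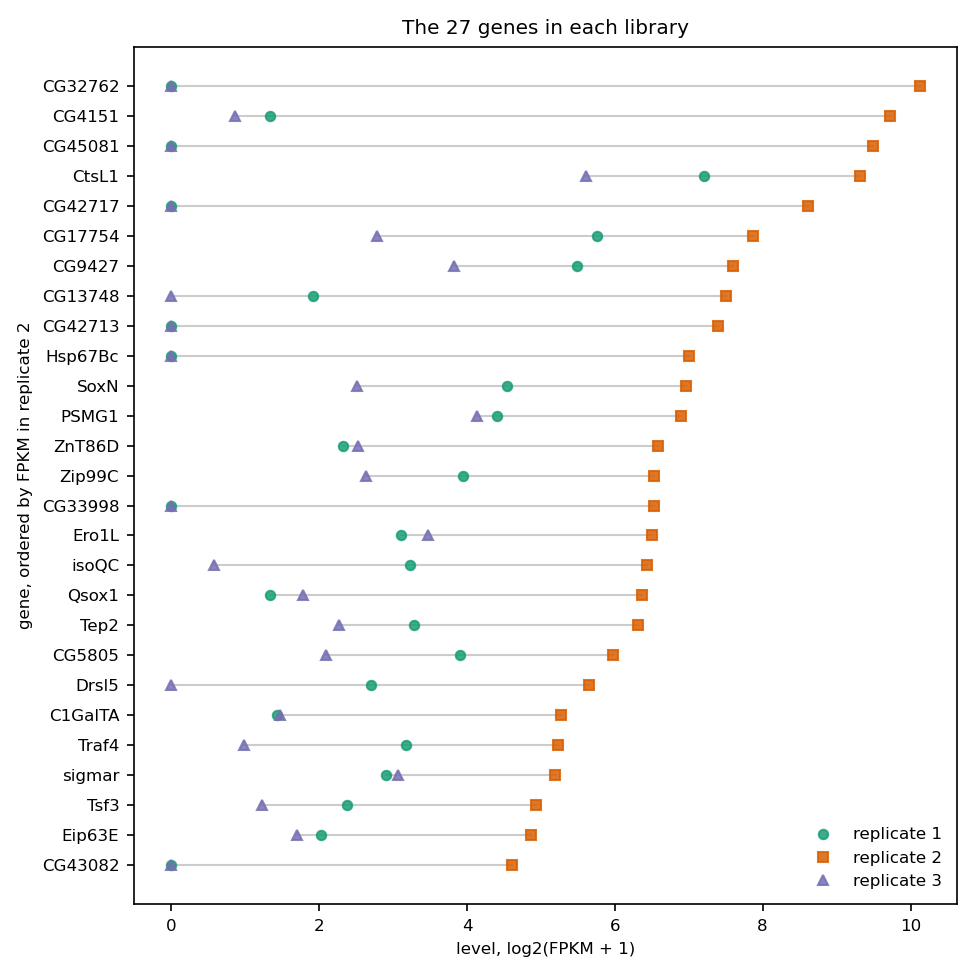
Level of each of the 27 genes in the 3 libraries, as log2(FPKM + 1) on the horizontal axis, 1 point per library, with genes ordered by FPKM in replicate 2. Replicate 2 is the highest point in each row by the rule, while the distance to the other points ranges from 2.05 for Traf4 to 10.12 for CG32762.

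The genes fell along a range from absence to clear presence in the other libraries. For 10 of the 27, both other libraries held 3 fragments or fewer, fragments being read pairs per gene recovered from FPKM and exon length. For 7 of these 10, both held 0. At the other end, 8 of the 27 had 10 FPKM or more in at least 1 other library, led by CtsL1, so that "high in replicate 2" describes them better than "present in replicate 2 alone". Replicate 1 was above replicate 3 for 15 genes, below it for 5 and equal, at 0, for 7. Together the 27 genes held 435, 5890 and 269 fragments in replicates 1, 2 and 3, which is 0.0641%, 0.674% and 0.0227% of the fragments outside rRNA genes. The top 5 genes held 57.6% of the 5890.

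**Figure D2:**
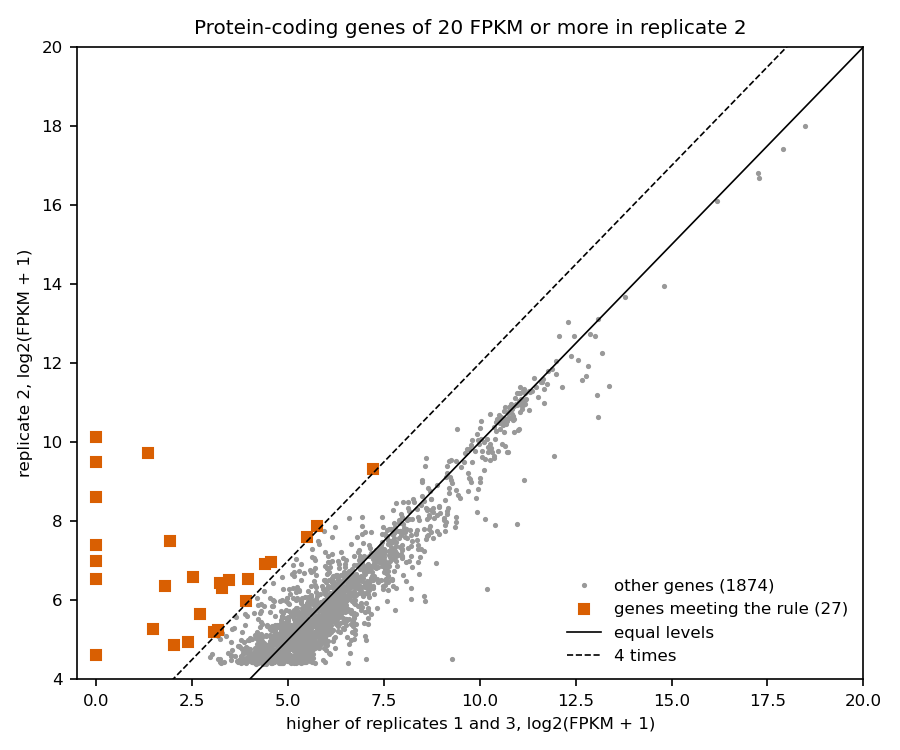
Protein-coding genes of 20 FPKM or more in replicate 2, with replicate 2 on the vertical axis and the higher of replicates 1 and 3 on the horizontal axis, both as log2(FPKM + 1), 1 point per gene. The 27 genes (squares) lie on or above the dashed line of 4 times, 7 of them at 0 on the horizontal axis, and the other genes lie around the line of equal levels.

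Depth outside rRNA genes differed between libraries and sets what a 0 means. Recovered fragments in all were close, at 1509433, 1490262 and 1571526 in replicates 1, 2 and 3. Fragments outside rRNA genes and pseudogenes numbered 678717, 874009 and 1185543 in replicates 1, 2 and 3, and rRNA took 55.0%, 41.4% and 24.6% of all fragments. Where no fragment was counted, as many as 3 remain possible. Folds over a library at 0 are therefore lower bounds against 3 fragments in that library, and other folds carry a 95% exact interval. The bounds allow for counting error in the library at 0 only and take the replicate 2 count as exact. The intervals cover counting error in both libraries. Neither speaks of the spread between animals or cultures. In bulk RNA, fewer cells of a type and less RNA per cell cannot be told apart.

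The 10 genes with 3 fragments or fewer in both other libraries were led by a pair of neighbouring genes on the X chromosome. CG32762 (FBgn0052762, BDGP6.54 X 5500208 to 5501229, minus strand) had 0, 1114 and 0 FPKM in replicates 1, 2 and 3, from 0, 692 and 0 fragments. It was at least 158-fold higher in replicate 2 than in replicate 1 and at least 299.8-fold higher than in replicate 3. CG4151 (FBgn0029770, X 5501476 to 5502782, plus strand) had 1.53, 846 and 0.809 FPKM, from 1, 804 and 1 fragments. Its fold was 552 over replicate 1 (95% exact interval 98.9 to 21849) and 1045 over replicate 3 (187 to 41329). Replicates 1 and 3 were alike near 0 for both genes and replicate 2 stood far apart, where the genes ranked 110 and 136 among protein-coding genes.

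The 2 genes are transcribed away from each other, with 246 bases between them, and neither shares exon bases with another annotated gene. Their neighbours in the annotation did not share the pattern. SPR and frma on one side were listed at 0 in all 3 libraries, though 26.8% and 33.6% of their exon bases lay in exons of other genes. CG12730 on the other side had 9.52, 17.4 and 7.83 FPKM. This was the only pair among the 27 genes within 10 kb of each other, and widening the distance to 50 kb added none. Among the 19 genes that the rule gave for replicate 3, 4 had another of the 19 within 10 kb.

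CG45081 (FBgn0266456, 3L 19266061 to 19266838) had 0, 719.8 and 0 FPKM, from 344 fragments in replicate 2. It was at least 78.8-fold above replicate 1 and at least 149-fold above replicate 3. Its exons share 37.3% of their bases with Aldh7A1, CG42374 and Mettl5, and the table was counted without strand, so a part of its fragments is uncertain. CG42717 (FBgn0261634, 3L 16032762 to 16033190) had 0, 391 and 0 FPKM, from 106 fragments in replicate 2, at least 24.3-fold and 45.9-fold higher than in replicates 1 and 3. CG42713 (FBgn0261630, 2L 8891440 to 8892180) had 0, 167 and 0 FPKM from 82 fragments, at least 18.8-fold and 35.5-fold higher. In each of these genes, replicate 2 was the single library with any fragment.

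CG13748 (FBgn0033355, on 2R) had 2.77, 181 and 0 FPKM, from 1, 95 and 0 fragments. CG33998 (FBgn0053998, on 2R) had 0, 91.0 and 0 FPKM, from 39 fragments in replicate 2. CG43082 (FBgn0262528, on 3L) had 0, 23.4 and 0 FPKM from 5 fragments. Its bounds of 1.15-fold and 2.17-fold take those 5 fragments as exact, so they do not show a difference beyond counting error. Drsl5 (FBgn0035434, on 3L), a relative of the antifungal peptide gene Drosomycin, had 5.50, 49.1 and 0 FPKM from 1, 13 and 0 fragments, and its fold over replicate 1 of 8.93 had an interval from 1.34 to 380. Drsl5 and CG43082 had the fewest fragments of the group.

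Hsp67Bc (FBgn0001229, 3L 9371511 to 9372497) was, beside Drsl5, the gene of the group with a name. It encodes a small heat shock protein of the ecdysone-responsive 67B gene cluster, which acts with the co-chaperone Starvin in protein quality control. It had 0, 127 and 0 FPKM in replicates 1, 2 and 3, from 0, 91 and 0 fragments, at least 20.8-fold above replicate 1 and 39.4-fold above replicate 3. Of the other small heat shock genes, Hsp22 and Hsp67Ba had 1 fragment or fewer in each library, with 100% and 75.9% of their exon bases shared with other genes. Hsp23 had 380, 672 and 37.1 FPKM and Hsp27 had 174, 275 and 55.1. Hsp26 had 3.96, 5.44 and 1.05 FPKM, from 4 fragments or fewer. The inducible Hsp70 genes, textbook targets of heat and other stress, had at most 4 fragments each in any library. The counter is not given, so how reads that fit several Hsp70 copies were counted is unknown. Starvin's gene, stv, had 23.4, 28.8 and 19.02 FPKM, and the stress factor gene Hsf had 10.3, 10.4 and 16.7. Of the 8 genes of the heat shock and stress list with 20 FPKM or more in replicate 2, Hsp67Bc alone met the rule. Over all 1901 genes at that level the share was 1.42%.

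The exon length of these 10 genes had a median of 666 bases, from 294 to 1307, and 8 of the 10 had a CG number in place of a gene name. The other 17 had a median of 2278 bases, from 893 to 6544, and 3 CG numbers. Over all 1901 genes the median exon length was 1804 bases and 24.6% had a CG number. The group was taken by fragments, which at equal FPKM are fewer in a short gene, so its length is in part set by that choice. At 1.53 FPKM in replicate 1, CG4151 had 1 fragment on 1307 exon bases and Qsox1 had 2 on 2620. Qsox1 was outside the group through replicate 3, where it had 6 fragments at 2.42 FPKM, while CG4151 had 1 at 0.809 FPKM.

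The other 17 genes had more than 3 fragments in at least 1 other library, though isoQC, Traf4 and Tsf3 had 3 or fewer in replicate 3. Those with roles in the secretory pathway are described first, an order chosen after the genes were known and not a tested theme. Qsox1 (FBgn0033814, on 2R) encodes a sulfhydryl oxidase that makes disulfide bonds in secreted proteins. It had 1.53, 81.3 and 2.42 FPKM, from 2, 155 and 6 fragments, a fold of 53.3 over replicate 1 (95% exact interval 14.5 to 444) and of 33.6 over replicate 3 (15.1 to 92.9). Ero1L (FBgn0261274, 3L 4170404 to 4173789) encodes the oxidase that recharges protein disulfide isomerases in the ER. It had 7.62, 89.7 and 10.1 FPKM, from 8, 137 and 20 fragments, with folds of 11.8 (5.81 to 27.8) and 8.90 (5.55 to 15.03). For both genes replicates 1 and 3 lay close together and replicate 2 lay apart.

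The genes compared here that work beside these oxidases did not follow them. In deposited FPKM, the disulfide isomerase family genes ERp60, CaBP1, ERp44 and prtp, and the BiP gene Hsc70-3, were lowest in replicate 2. Pdi was searched for by that symbol and not matched, so it was not compared. ERp60 had 696, 623 and 1110 FPKM, and CaBP1 had 488, 402 and 691. ERp44, which retains Ero1 in the ER in mammals, had 379.5, 274 and 659 FPKM. Hsc70-3, which encodes the ER chaperone BiP, had 1109, 871 and 1418. Qsox2, Qsox3 and Qsox4 rested on 2 fragments or fewer in every library. This order depended on scaling. With equal sums per library (TPM) replicate 1 became the lowest for ERp60, CaBP1, ERp44 and Hsc70-3. With equal sums outside rRNA genes replicate 1 became the lowest for ERp60 alone, and replicate 2 stayed the lowest for the others. With median-of-ratios scaling replicate 2 stayed the lowest for these 4 genes. Replicate 3 was the highest for these 4 genes under each scaling, and Ero1L and Qsox1 were highest in replicate 2.

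isoQC (FBgn0036999, 3L 20474466 to 20477003) encodes a glutaminyl cyclase, which closes N-terminal glutamine into pyroglutamate. It had 8.36, 85.6 and 0.491 FPKM, from 9, 134 and 1 fragments, and its family partner QC had 4 fragments or fewer in each library. Exons of isoQC share 17.4% of their bases with other features. C1GalTA (FBgn0032078, 2L 8943455 to 8951216) encodes the galactosyltransferase that extends mucin-type O-glycans to core 1. It had 1.68, 37.6 and 1.78 FPKM, from 2, 65 and 4 fragments, with folds of 22.3 (95% exact interval 5.94 to 188) and 21.1 (7.87 to 79.8). Pgant9, whose enzyme starts such glycans, differed little between the libraries, as given above.

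2 metal transporters of the secretory pathway were among the genes. ZnT86D (FBgn0037875, 3R 11212308 to 11214539) encodes a zinc transporter of the Golgi. It had 3.995, 94.7 and 4.75 FPKM, from 4, 138 and 9 fragments, with folds of 23.7 (95% exact interval 9.05 to 88.2) and 19.9 (10.2 to 44.5). Zip99C (FBgn0039714, 3R 29863701 to 29868895) belongs by sequence to the ZIP zinc family and is known in flies for moving iron into the secretory pathway. It had 14.4, 91.5 and 5.23 FPKM, from 16, 148 and 11 fragments. Relatives were searched by ZnT and Zip symbols only, so family genes under other symbols were not counted. Of those found, 2 ZnT and 3 ZIP genes had 20 FPKM or more in replicate 2. None of them met the rule, beside 1.42% of all 1901 genes. ZnT63C had 82.4, 63.4 and 66.7 FPKM, and Zip88E had 582, 456 and 499.

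Tsf3 (FBgn0034094, on 2R), a transferrin family gene, had 4.21, 29.5 and 1.33 FPKM, from 5, 51 and 3 fragments. Tsf1, which encodes the iron carrier of the hemolymph, had 10.5, 5.78 and 5.19 FPKM, and Tsf2 had 28.4, 21.5 and 18.7. Tep2 (FBgn0041182, 2L 7693727 to 7701601), which encodes a secreted thioester protein of immunity, had 8.70, 78.8 and 3.80 FPKM from 23, 303 and 19 fragments. Its folds were 9.05 (95% exact interval 5.92 to 14.5) and 20.7 (13.1 to 34.9). Tep1, Tep3 and Tep4 stayed at 5.62 FPKM or less in each library. Of the 3 antimicrobial peptide genes with 20 FPKM or more in replicate 2, Drsl5 alone met the rule, beside 1.42% of all 1901 genes. CecC, DptA and DptB, which encode peptides against bacteria, were highest in replicate 1. They had 72.6, 28.2 and 49.0 FPKM there, from 14 fragments or fewer each.

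**Figure D3:**
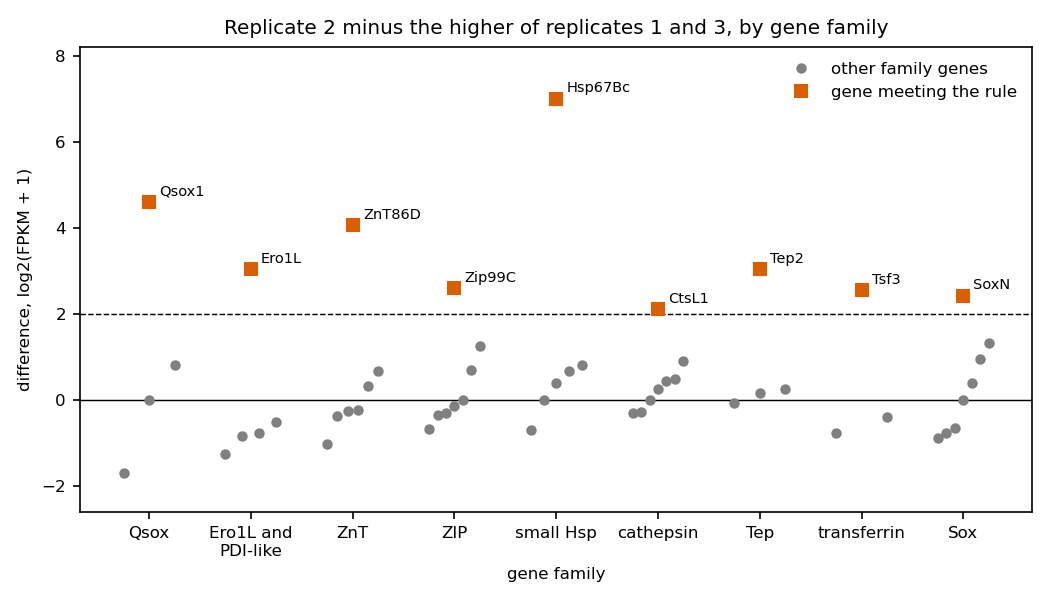
Replicate 2 minus the higher of replicates 1 and 3, as a difference of log2(FPKM + 1), for genes of 9 families found by symbol, 1 point per gene. The dashed line is at 4 times. In each family 1 gene (square) lies above the dashed line by the rule, and each other family gene (circle) lies at 1.33 or less.

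Lysosomal and regulatory genes made up most of the rest. CtsL1 (FBgn0013770, on 2R) encodes cathepsin L, a lysosomal protease. It had 146, 636 and 47.6 FPKM, from 151, 956 and 93 fragments, with folds of 4.35 (95% exact interval 3.66 to 5.20) and 13.4 (10.8 to 16.7). CtsL3, a related gene, had the same order with smaller gaps, at 26.9, 51.6 and 14.2 FPKM. cathD, which encodes the protease cathepsin D, had 66.2, 90.2 and 52.2, and replicate 1 became its lowest library with equal sums per library. CtsK1 was highest in replicate 3, at 45.95, 45.5 and 56.5 FPKM, and CtsL2 was listed at 0 in each library. Of the 8 cathepsin genes compared, CtsL1 included, 5 were highest in replicate 2 in FPKM. sigmar (FBgn0034894, on 2R), a gene known for a role in autophagic breakdown of the gland, had 6.48, 35.6 and 7.34 FPKM, from 7, 56 and 15 fragments. Of the 12 autophagy and lysosome genes with 20 FPKM or more in replicate 2, 10 were highest there, or 11 with equal sums outside rRNA genes, beside 38.7% and 53.1% of all 1901 genes. In the whole list of 19 genes, 11 were highest there, or 12 with equal sums outside rRNA genes. The limit of 20 FPKM is set on replicate 2 and CtsL1 was chosen by the rule, so these counts are no test. CtsL1 alone of the 12 met the rule, beside 1.42% of all 1901 genes. Atg13 had 23.3, 56.3 and 5.28 FPKM, and Atg7 had 12.5, 31.0 and 11.5.

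SoxN (FBgn0029123, 2L 8825645 to 8829670), a transcription factor gene of the SoxB group, had 22.4, 124 and 4.73 FPKM, from 45, 362 and 18 fragments. Its folds were 5.53 (95% exact interval 4.05 to 7.71) and 26.1 (16.3 to 44.6), and the 3 libraries were all apart. Another Sox gene, the ecdysone-responsive Sox14, had the same order at 64.3, 124 and 9.46 FPKM. Eip63E (FBgn0005640, 3L 3515751 to 3610521) encodes a cyclin-dependent kinase first found as ecdysone-induced. It had 3.06, 28.2 and 2.26 FPKM, from 10, 134 and 14 fragments, and its partner gene CycY had 7.05, 8.08 and 10.4. Traf4 (FBgn0026319, on 2L), an adaptor of TNF receptor and JNK signalling, had 8.06, 36.7 and 0.984 FPKM, and shared 26.8% of its exon bases with a long non-coding RNA. PSMG1 (FBgn0037378, on 3R), which encodes a chaperone of proteasome assembly, had 20.2, 119 and 16.6 FPKM, from 9, 77 and 14 fragments.

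3 genes known by CG number were left. CG17754 (FBgn0030114, on X) had 53.3, 233 and 5.88 FPKM, from 91, 579 and 19 fragments. CG9427 (FBgn0037721, on 3R) had 43.7, 193 and 13.2 FPKM. CG5805 (FBgn0039223, on 3R) had 14.1, 62.2 and 3.25 FPKM. In all 3, as in CtsL1 and SoxN, replicate 1 lay between replicate 2 and replicate 3.

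Position was not used to choose the genes. They lay on X (3), 2L (5), 2R (6), 3L (8) and 3R (5). Over the 1901 genes the shares of these arms were 15.5%, 18.4%, 20.5%, 21.2% and 23.2%. Within 10 kb of the 27 lay 157 other protein-coding genes, of which 34 had 20 FPKM or more in replicate 2. These 34 had a median difference of 0.20 on the log2(FPKM + 1) scale, and 4 of them reached a ratio of 4. All 4 were Eig71E genes beside CG43082.

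CG43082 lies 57 bases past Eig71Ek at the end of the Eig71E cluster, a group of late ecdysone-inducible genes that the rule leaves out. Eig71Ec, for example, had 0, 469 and 0 FPKM and Eig71Ed 4.82, 490.3 and 2.55, while Eig71Ej and Eig71Ek, next to CG43082, were listed at 0. Eig71Ee, a gene of the cluster listed here with the glue genes, differed from Eig71Ec and Eig71Ed. It had 38431, 31675 and 35136 FPKM, the lowest in replicate 2. The interspersed genes CG43083 and CG43084 were highest in replicate 3. CG43083 had 293, 268.5 and 539 FPKM, and CG43084 had 173, 122 and 461. PGRP-SB2, also left out by its symbol, had 5.82, 1778 and 3.07 FPKM.

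On 2L, SoxN, CG42713 and C1GalTA lie in 1 stretch of 125572 bases with unlike genes in between. The long non-coding RNA gene lncRNA:CR44414, between SoxN and CG42713, had 0, 35.5 and 0 FPKM from 21 fragments in replicate 2. Tsp29Fb, a tetraspanin gene between CG42713 and C1GalTA, had 184, 289.5 and 247 FPKM, and CG34398 had 6.63, 8.33 and 11.1. Another non-coding gene, lncRNA:CR45043, lies on the opposite strand within Eip63E without sharing its exons, and had 0, 82.0 and 1.37 FPKM from 46 fragments in replicate 2. On 3R, lncRNA:CR43301 had 14.7, 72.2 and 0 FPKM from 13, 93 and 0 fragments. Since counting was without strand, reads from unspliced Eip63E and from lncRNA:CR45043 cannot be told apart.

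**Figure D4:**
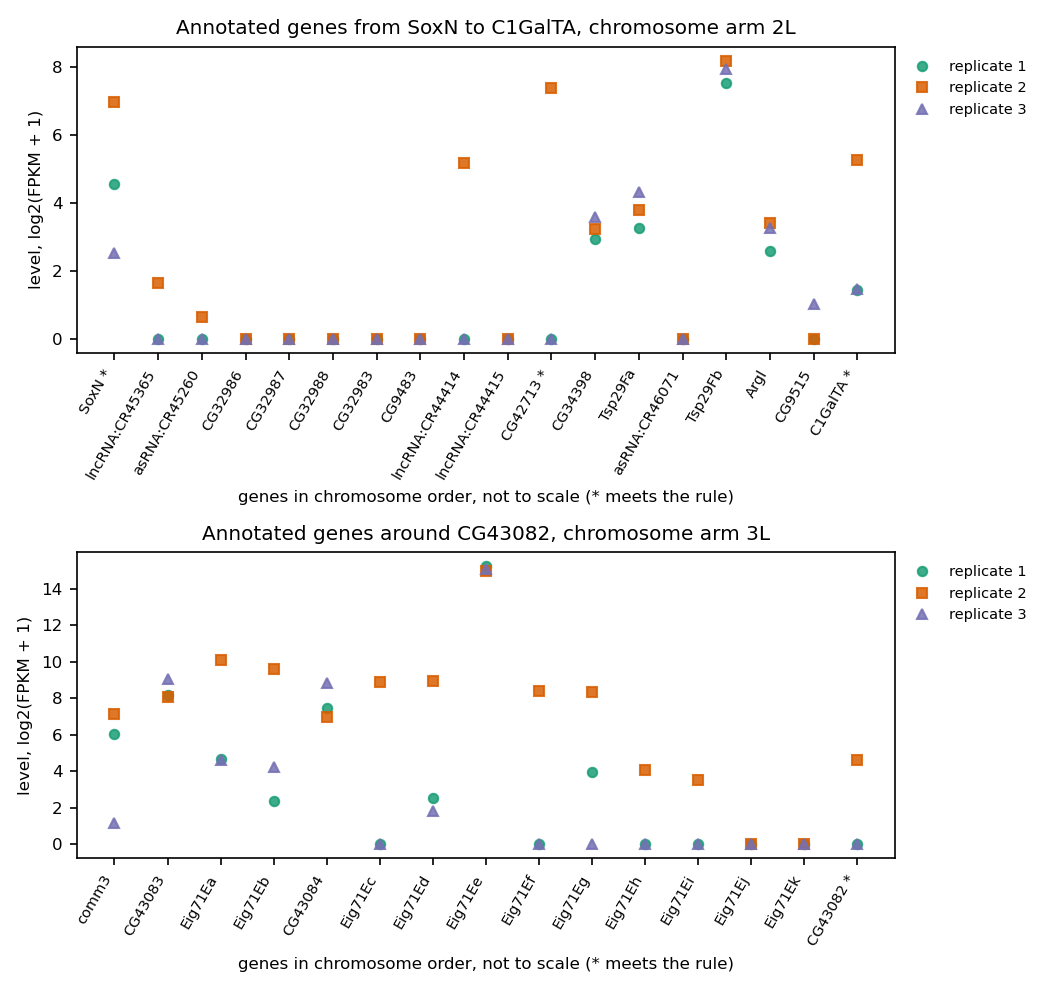
Levels of all annotated genes in 2 stretches, as log2(FPKM + 1) on the vertical axis, 1 point per library, with genes in chromosome order and not to scale. On 2L, SoxN, lncRNA:CR44414, CG42713 and C1GalTA are apart in replicate 2, at 124, 35.5, 167 and 37.6 FPKM, with genes of like levels between them, and on 3L CG43082 follows the Eig71E genes.

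Lists of hormone response and cell death were set beside these genes. Of the 26 lists compared, 5 held a gene that met the rule, which were Hsp67Bc (heat shock and stress), Drsl5 (antimicrobial peptides), Tep2 (immune signalling and serpins), CtsL1 (autophagy and lysosome) and Eip63E (other ecdysone-inducible genes). Of the 11 ecdysone regulators with 20 FPKM or more in replicate 2, 5 were highest there in FPKM, beside 38.7% of all 1901 genes. The count was 8 as TPM (beside 43.6%), 6 with equal sums outside rRNA genes (53.1%) and 5 with median-of-ratios scaling (43.6%). In the whole list of 18 regulators, 7 were highest there in FPKM, 10 as TPM, 8 with equal sums outside rRNA genes and 7 with median-of-ratios scaling. Eip78C, a nuclear receptor gene induced by ecdysone, had 39.1, 119 and 0.180 FPKM, and Hr39, another nuclear receptor gene, had 17.3, 35.6 and 6.15. The receptor gene EcR, at 52.6, 40.7 and 29.5 FPKM, and the early gene br, at 94.98, 78.0 and 39.7, were highest in replicate 1. Only as TPM were both highest in replicate 2. The late regulators ftz-f1 and Eip93F had at most 1.36 FPKM. None of these 11 met the rule in FPKM, though Eip78C did as TPM, and Eip63E was 1 of 5 other ecdysone-inducible genes at that level, beside 1.42% of all 1901 genes. The death gene rpr had 11.1, 38.1 and 2.35 FPKM, from 5, 25 and 2 fragments, and the Bcl-2 family gene Buffy had 17.4, 64.9 and 3.06, both under the limit. Both met the rule after rescaling to TPM, and Buffy also with equal sums outside rRNA genes, so the call depends on scaling. Of the 6 cell death genes with 20 FPKM or more in replicate 2, 5 were highest there under each scaling, and none met the rule in deposited FPKM. In the whole list of 14 genes, 9 were highest there under each scaling. The limit of 20 FPKM is set on replicate 2 itself and favours that library, so these counts are a description and not a test. Over all 1901 genes the share highest in replicate 2 was 38.7% in FPKM and up to 53.1% with equal sums outside rRNA genes.

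Marker genes of other tissues were compared by their summed level. The sum over 16 fat body genes was 4600, 6672 and 6590 FPKM in replicates 1, 2 and 3, with 3 genes at 0 in all. Replicate 3 was the highest for this sum as TPM only. The sum joins genes of unlike order. Of the 16, 7 were highest in replicate 2, among them Fbp1 at 1037, 1468 and 272 FPKM. Lsp1alpha, at 270, 298 and 979, was highest in replicate 3. The sum over 12 hemocyte genes was 22.7, 47.3 and 31.2. Among hemocyte genes, crq had 9.83, 26.6 and 14.1 FPKM, while the defining genes Hml and NimC1 had 0.964 FPKM or less, and the hemocyte sum was highest in replicate 2 under each scaling. The muscle sum was 117, 118 and 153, that of trachea and cuticle 44.2, 41.4 and 36.2, of midgut 23.0, 14.2 and 9.61, of the nervous system 14.4, 20.1 and 21.1, and of imaginal discs and rings 58.9, 47.9 and 32.8 FPKM. The Malpighian tubule and hindgut sum was 344, 350.1 and 157, nearly all from Drip, NKCC and Best2. The oenocyte and lipid sum was 310, 391 and 376, mostly from Npc2a at 273.5, 359 and 277.8 FPKM. Cyp4g1, the defining oenocyte gene, rested on 1 fragment. Testis, ovary and ring gland lists summed to 6.90 FPKM or less in each library. Of the 154 matched genes of these 12 lists, 16 had the 20 FPKM in replicate 2 that the rule asks for, and none of the 16 met it, beside 1.42% of all 1901 genes. Glue genes summed to 1035391, 778214 and 892182 FPKM, lowest in replicate 2 under each scaling except TPM, where replicate 1 was lowest. The part of any of these lists in the levels of the 27 genes was not tested.

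**Figure D5:**
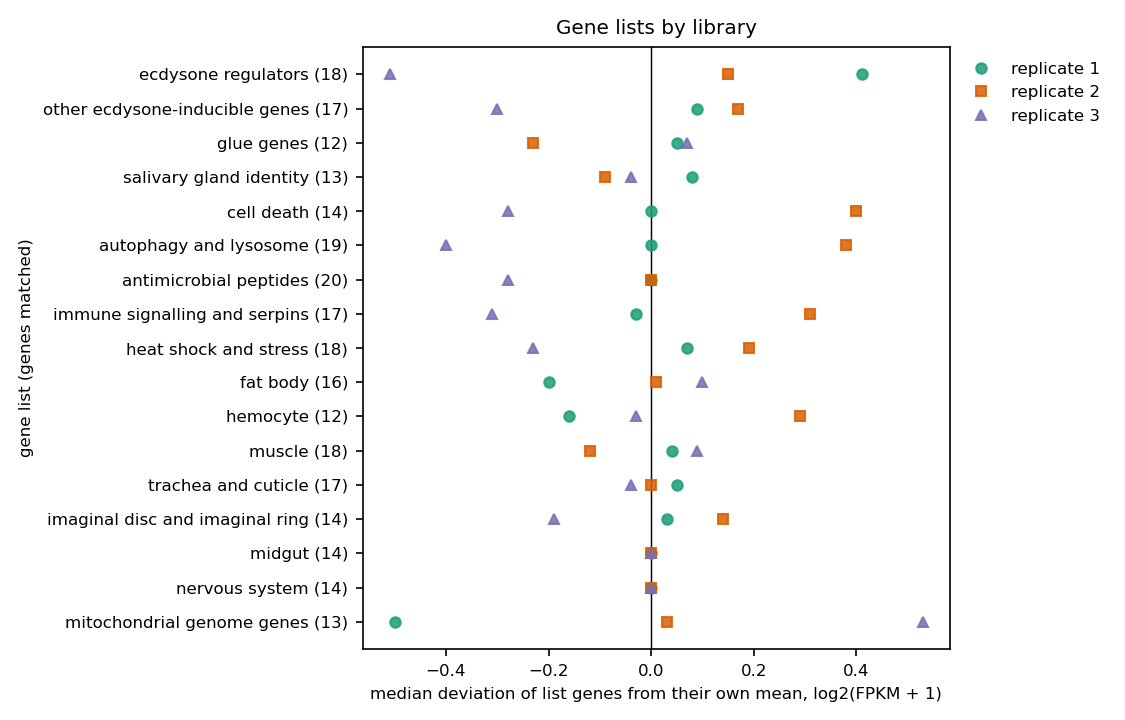
Median deviation of the genes of each list from their own mean over the 3 libraries, on the log2(FPKM + 1) scale, 1 point per list and library, with the number of genes matched. Replicate 2 lies at 0.40 for cell death and 0.38 for autophagy and lysosome genes, against -0.23 for glue genes and 0.01 for fat body genes.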

How the data were processed

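The authors deposited 1 table of FPKM values, 17278 FlyBase genes by 3 libraries of poly(A) RNA. Per the labels' protocols, RNA of 50 glands per sample was taken with TRIZOL into a directional kit. The submitters' processing notes name HISAT2 and DESeq, with no version. Build, annotation and counter are not given in the sources used, and the table's name marks counting without strand. Of the gene identifiers, 17142 were found in Ensembl BDGP6.54, release 115. FPKM times exon length gave whole multiples of 1 step per library, within 0.01, for 98.7% to 98.8% of values above 0. These fragments served for intervals and floors. With 1 group, no test between samples was run. Exact 95% intervals of ratios are conditional binomial, scaled by the steps' denominators of 499875, 727436 and 945562 fragments. These denominators equal neither all recovered fragments of a library nor those outside rRNA genes.

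The genes and the 26 lists were chosen with earlier results of these data known. All 27 genes are named, with values in every library. Families of paralogs, neighbouring genes and non-coding genes were chosen after values were seen. Recovery of fragments and the rule were tested on simulated data. Alternatives were other limits, pseudocounts, scalings and libraries left out. The work used matplotlib 3.10.9, intervaltree 3.1.0, scipy 1.17.1, pandas 2.3.3 and numpy 2.4.6 under Python 3.11.15.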

Additional observations from a re-analysis of the deposited data

How the results depend on the processing

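The rule's own limits set the number of genes. It was 27 as reported, 51 with a ratio of 3, 54 with libraries rescaled to an equal sum (TPM), and 164 without replicate 1, against 32 without replicate 3. All 27 stayed as TPM, while the other settings named here only loosen the rule. Rescaling to TPM moved every gene by 0.54 on the log2 scale for replicate 2 against replicate 1, and by -0.15 against replicate 3. The TPM sum includes rRNA genes, whose share of fragments differed between libraries. Equal sums outside rRNA genes moved every gene by 0.26 and 0.16, and median-of-ratios scaling by 0.07 and 0.07. The number was 18 with a ratio of 6, 20 with a minimum of 50 FPKM, 34 with a minimum of 10 FPKM, 29 with a pseudocount of 0.1, 40 with equal sums outside rRNA genes and 28 with median-of-ratios scaling. A minimum of 10 fragments left 26, without CG43082, and a limit of 20% on shared exon bases left 25, without CG45081 and Traf4. The median difference of the 27 genes went from 3.04 to 3.16 with a pseudocount of 0.1 and to 3.53 as TPM, and was 4.44 without replicate 1 and 3.21 without replicate 3. Without replicate 2 the rule gives no value. The planned search for promoter motifs was not run, as no genome sequence was used here. No paired analysis was possible because the 3 samples form 1 group. Depth limits the shortest genes, where 5 fragments can meet the rule.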
